A study of Mus musculus with 6 samples.

Results

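Histone genes were examined in poly-A RNA of 22Rv1, a human prostate cancer cell line, and of a subline made resistant to BL-B01D1. The members were all protein-coding genes of the deposited count table whose name begins with HIST1H to HIST4H, with H2AF or with H3F. This rule found 83 of the 58735 genes, 71 with a HIST name and 12 with an H2AF or H3F name, and it used no measured value. A further 34 genes have such names but another biotype, mostly pseudogene, and were left out.

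BL-B01D1 is an antibody-drug conjugate against EGFR and HER3 that carries Ed-04, a camptothecin-derived inhibitor of topoisomerase I. The parental group was 22Rv1 cells given vehicle and the resistant group was the 22Rv1 BL-B01D1_R subline, grown in rising concentrations of BL-B01D1, with 3 libraries in each group. Only 1 resistant line was made, the libraries of a group are samples of 1 line, and the sources used here do not state whether drug was present when RNA was taken. The p-values therefore measure the spread between these libraries and not between selections. The sample labels name mouse as the organism, yet the table lists human genes on hg38.

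Histones are the proteins around which DNA is wrapped. The core histones H2A, H2B, H3 and H4 form the nucleosome, and H1 binds the linker DNA between nucleosomes. Most HIST genes are replication-dependent: they are transcribed in S phase, are intronless, and give mRNAs that end in a stem loop, bound by SLBP, instead of a poly-A tail. H2AF and H3F genes encode replacement variants. Many of them, though not all, are expressed through the cell cycle and give ordinary polyadenylated mRNAs. Some HIST genes also make polyadenylated transcripts, which are known to accumulate when cells stop dividing or differentiate. The values below are therefore levels of transcripts retained by oligo-dT selection. For HIST genes, and for any H2AF or H3F gene that also makes mRNA without a poly-A tail, they are not levels of all histone mRNA.

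Counts on genes totaled between 13821639 and 17251491 per library, which makes 3 counts worth 0.174 to 0.216 CPM (TMM-normalized counts per 1000000). Replicate libraries varied beyond sampling noise (chi-square divided by degrees of freedom 1.79 to 2.48). This is more than sequencing the same library again would give. Whether the libraries of a group came from separate cultures was not tested. All 9 markers of prostate luminal cells passed the low-count filter, with 5 higher and 3 lower in resistant cells at an FDR of less than 0.05 (the adjusted p-value defined below). These shares were 55.6% and 33.3%, against 17.1% and 18.4% of all genes tested. None of the 5 leukocyte and 3 endothelial markers passed the filter, and CD3E and CDH5 had 0 counts. The 6 fibroblast markers summed to between 112 and 115 CPM in parental and between 39.6 and 44.7 CPM in resistant libraries. Of these, 4 passed the low-count filter. LUM and COL1A1 fell, 50% of those tested against 18.4% of all genes tested. DCN and COL3A1 did not pass the test, and COL1A2 had at most 2 counts. The part of these markers in the histone values was not tested.

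Between 0.308% and 0.319% of each library's counts fell on histone genes, and nearly all of these lay on replacement variants. HIST genes held 3.92% ± 0.13 of the histone counts in the parental group and 4.67% ± 0.077 in the resistant group (mean ± SD, n = 3 each). In bulk RNA, more cells with a transcript and more of it per cell cannot be told apart, here and in every result that follows. Of the 83 members, 20 had 0 counts in all 6 libraries, 24 more stayed under 10 counts in every library, and 26 had at least 10 counts in every library. Only 32 had enough counts to be tested, 25 of the 71 HIST genes and 7 of the 12 H2AF and H3F genes. The other 51 did not pass the low-count filter and were not tested here.

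Differential expression was tested with edgeR's quasi-likelihood test over all 17142 genes with enough counts. Fold changes are resistant against parental, and FDR is the p-value adjusted by Benjamini-Hochberg over all these genes. Among histone genes, 8 were higher and 3 lower in resistant cells at an FDR of less than 0.05. Over all genes tested, 17.1% were higher and 18.4% lower at that threshold. With the further condition of an absolute log2 fold change greater than 1, only HIST2H4B was called higher and 0 members were called lower, against 2.53% and 2.84% of all genes tested. All resistant libraries lay above all parental ones for 8 tested members and below them for 4, against 22.1% and 22.8% of all genes tested. Tested members had a median log2 fold change of 0.18, against 0.0038 over all genes tested. Of the 32, 21 were above 0, against 8674 of all 17142 genes tested. The tested members are those that passed a filter on low counts, which a gene can pass through the group in which it is higher, so these counts and medians describe the tested genes and not all members.

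**Figure D1:**
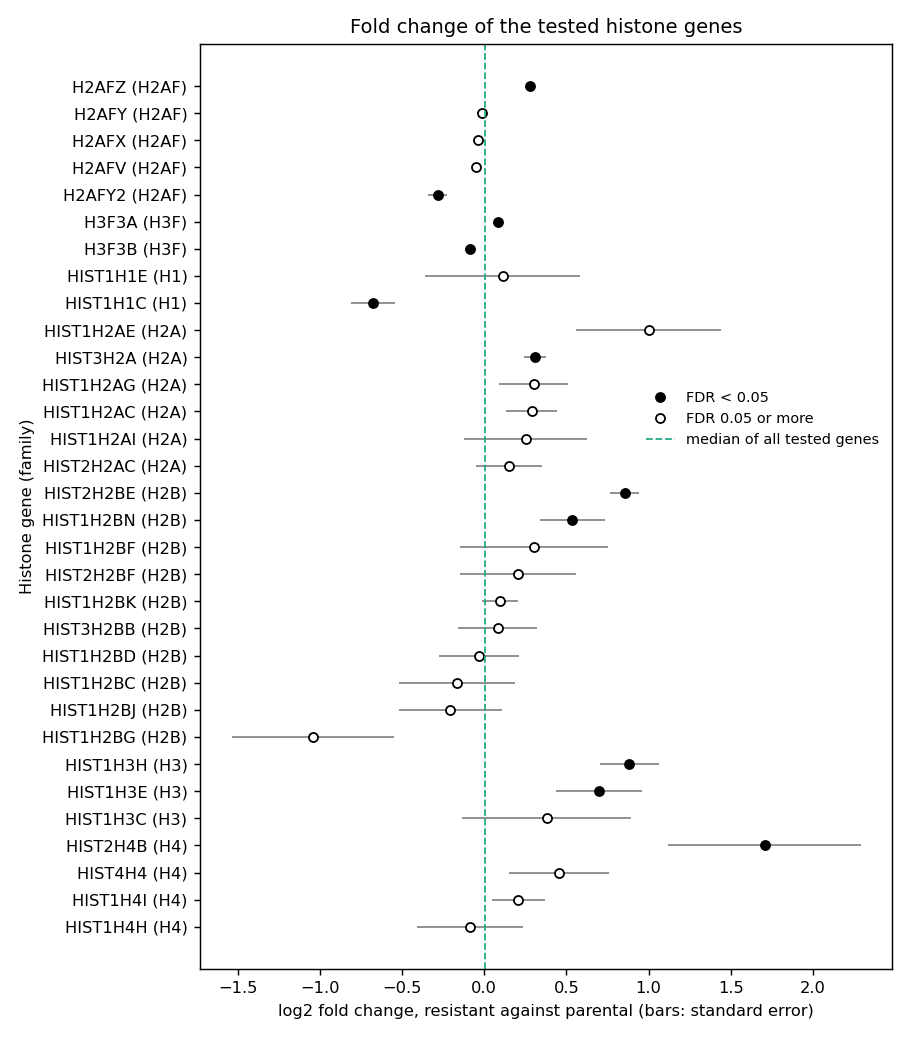
Log2 fold change (x axis, resistant against parental) of the 32 tested histone genes, grouped by family, with bars for the standard error of the fit over 3 libraries per group. Filled points have an FDR of less than 0.05 and the dashed line is the median of all tested genes. HIST2H4B lies farthest to the right at 1.71 with a wide bar, whereas the H2AF and H3F genes lie between −0.28 and 0.28 with narrow bars.

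Among the replacement variants, H2AFZ rose, H2AFY2 fell, and the H3.3 genes moved slightly in opposite directions. H2AFZ (ENSG00000164032; hg38 chr4:99948086-99950388, reverse strand) encodes H2A.Z, a variant found in nucleosomes that flank active promoters. Its level was 639, 617 and 631 CPM in parental libraries and 758, 770 and 758 CPM in resistant libraries, so that the groups did not overlap. The log2 fold change was 0.28 (SE 0.025, FDR 3.96e-12, edgeR). H2AFV, which encodes the second H2A.Z protein of the cell, ranged from 425 to 439 CPM in parental and from 412 to 424 CPM in resistant libraries. Its log2 fold change of −0.048 (SE 0.028) did not pass the test (FDR 0.180, edgeR), although all resistant libraries lay below all parental ones.

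H2AFY and H2AFY2 encode the macroH2A proteins, which carry a large domain beyond the histone fold and are associated with silent chromatin. H2AFY2 (ENSG00000099284; hg38 chr10:70052796-70112280, forward strand) measured 52.8, 54.4 and 53.1 CPM in parental libraries and 44.0, 41.9 and 45.7 CPM in resistant libraries. It fell by 0.28 on the log2 scale (SE 0.057, FDR 1.00e-04, edgeR), with no overlap between the groups. H2AFY had a log2 fold change of −0.015 (SE 0.029, FDR 0.742, edgeR) and overlapping groups. The span of H2AFY2 overlaps AIFM2 on the opposite strand, and reads of overlapping genes cannot be told apart where counting ignores strand. The same limit holds for H2AFZ, H2AFY, H3F3A and H3F3B, whose spans also overlap genes on the opposite strand. H3F3B, for example, overlaps UNK by 1123 bases.

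H3F3A and H3F3B encode the same protein, H3.3, which is deposited outside replication. H3F3A (ENSG00000163041; hg38 chr1:226061851-226072001, forward strand) was 402, 390 and 396 CPM in parental and 422, 416 and 422 CPM in resistant libraries, a log2 fold change of 0.085 (SE 0.027, FDR 0.0126, edgeR) that did not pass without parental library 2 (0.073, FDR 0.0716). H3F3B (ENSG00000132475; hg38 chr17:75776434-75785893, reverse strand) was 738, 715 and 733 CPM in parental and 695, 675 and 684 CPM in resistant libraries, and fell by 0.089 on the log2 scale (SE 0.025, FDR 0.00436, edgeR). Neither pair of groups overlapped, but both differences were small. The processed pseudogene H3F3AP4, a near-copy of H3F3A that shares reads with it, had a log2 fold change of 0.17 (FDR 6.08e-04, edgeR), so how the reads were divided between these genes is uncertain.

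H2AFX encodes H2A.X, the variant phosphorylated at DNA double-strand breaks. It ranged from 366 to 381 CPM in parental and from 353 to 372 CPM in resistant libraries, and its log2 fold change was −0.040 (SE 0.029, FDR 0.310, edgeR). The remaining H2AF and H3F genes were almost silent. H2AFJ had 2 counts in parental library 1 and 0 elsewhere, H3F3C had at most 4 counts in any library, and H2AFB1 had 1 count in all, while H2AFB2 and H2AFB3 had 0. The sum over the 12 genes was 2965 ± 23.5 CPM (SD, n = 3) in parental and 3040 ± 23.4 CPM (SD, n = 3) in resistant libraries.

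Per length of gene model, the replacement variants were also the most abundant. By mean FPKM (CPM per kilobase of gene model) over the 6 libraries, the order was H2AFZ at 302, H2AFX at 227, H3F3A at 130, H3F3B at 115 and H2AFV at 89.2. HIST3H2A followed as the highest HIST gene at 45.9 FPKM, then HIST1H2BK at 31.1, H2AFY2 at 24.6, H2AFY and, in the tenth place, HIST1H1C at 13.9. Only 19 of the 71 HIST genes exceeded 1 FPKM on average.

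**Figure D2:**
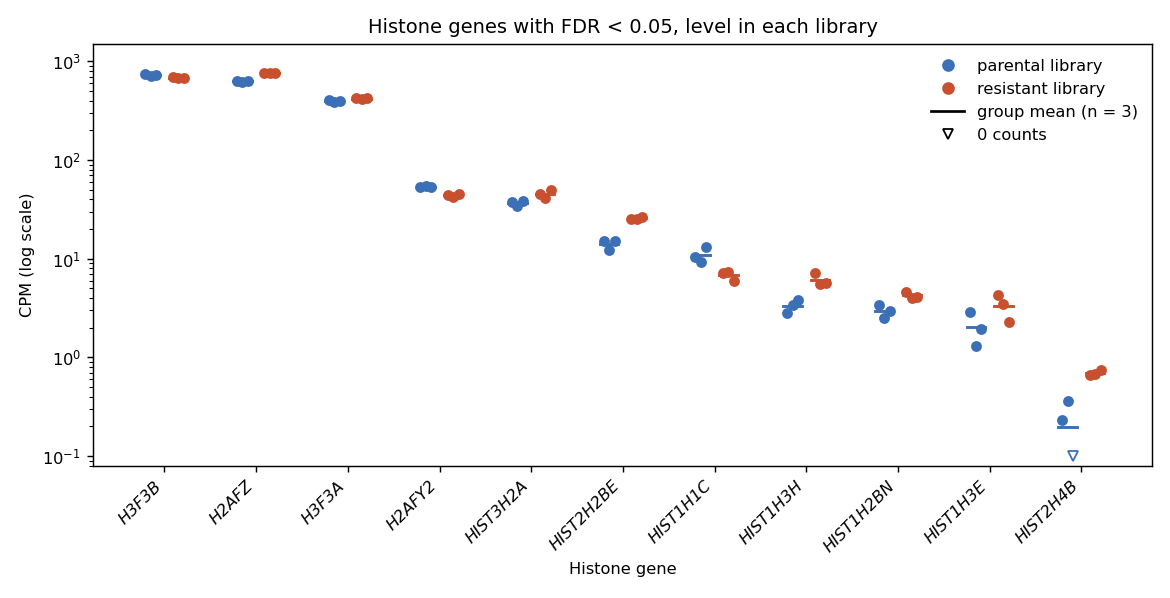
CPM (log scale) in each library of the 11 histone genes with an FDR of less than 0.05, with parental and resistant libraries as separate points and a bar at the mean of 3 libraries. H3F3B, H2AFZ and H3F3A lie near the top with tight groups, and HIST2H4B lies at the bottom with 0 counts in parental library 3.

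Summed over the 71 HIST genes, oligo-dT libraries held more histone transcript in resistant cells. The sums were 122, 116 and 125 CPM in parental and 150, 145 and 152 CPM in resistant libraries, a log2 ratio of the group means of 0.30. They rest on between 1739 and 2480 counts per library. At an FDR of less than 0.05, 6 of the 25 tested HIST genes were higher and 1 was lower. These shares were 24% and 4%, against 17.1% and 18.4% of all genes tested. The difference was uneven between the gene clusters. HIST2 genes, on chromosome 1, summed to 20.2, 18.9 and 20.9 CPM in parental and 31.6, 33.0 and 35.1 CPM in resistant libraries, and HIST3 genes, on the same chromosome, to 39.4 ± 1.86 and 48.4 ± 3.78 CPM (SD, n = 3). HIST1 genes, on chromosome 6, summed to 60.2 ± 2.29 and 65.4 ± 1.69 CPM. A few genes held most of these counts, and HIST3H2A alone took between 28.7% and 32.2% of the HIST counts of a library. Most of the difference between the HIST sums of the groups also lay on 2 genes. HIST2H2BE had means of 14.2 CPM in parental and 25.6 CPM in resistant libraries, and HIST3H2A had means of 36.7 and 45.4 CPM.

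HIST2H2BE, an H2B gene (ENSG00000184678; hg38 chr1:149884459-149886652, reverse strand), had the smallest FDR of all HIST genes. It had 263, 208 and 208 counts in parental and 415, 374 and 429 in resistant libraries, or 14.2 ± 1.58 and 25.6 ± 0.724 CPM (SD, n = 3). The groups were well apart, with a log2 fold change of 0.85 (SE 0.088, FDR 1.46e-10, edgeR). Most of the excess of the HIST2 sum came from this gene. HIST2H2AC, an H2A gene that starts 323 bases away on the opposite strand, had 45, 78 and 58 counts in parental and 59, 64 and 77 in resistant libraries. Its log2 fold change was 0.15 (SE 0.20, FDR 0.608, edgeR).

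HIST3H2A (ENSG00000181218; hg38 chr1:228456979-228457873, reverse strand), an H2A gene, measured 37.8, 34.2 and 38.0 CPM in parental and 45.5, 41.7 and 49.1 CPM in resistant libraries. Every resistant library was above every parental one, and the log2 fold change was 0.31 (SE 0.066, FDR 2.06e-04, edgeR). Nearly all of the excess of the HIST3 sum came from HIST3H2A. HIST3H2BB, its divergent H2B partner 234 bases away, was at 1.06 FPKM and had a log2 fold change of 0.081 (SE 0.24, FDR 0.832, edgeR).

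H2A and H2B genes often lie head to head around a shared promoter, and 11 such pairs started within 500 bases of each other. Both genes of a pair were tested in 5 of them. In 3 of these 5 the log2 fold changes had opposite signs, without either gene passing the test. One pair was HIST1H2AC (0.29, SE 0.15) and HIST1H2BC (−0.16, SE 0.36). Another was HIST1H2AG (0.301, SE 0.21) and HIST1H2BJ (−0.21, SE 0.31). The last was HIST1H2AE (1.00, SE 0.44) and HIST1H2BG (−1.04, SE 0.49). With standard errors of this size, the difference in sign within these pairs is uncertain. The last pair rests on few reads. HIST1H2AE had 8, 7 and 6 counts in parental and 13, 13 and 16 in resistant libraries, and passed the low-count filter only through the resistant group. HIST1H2BG had 26, 6 and 12 counts in parental and 7, 3 and 11 in resistant libraries. Levels within a pair also differed: HIST1H2BK had between 175 and 208 counts per library, whereas HIST1H2AH had at most 6.

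Among H3 genes, HIST1H3H and HIST1H3E were higher in resistant cells. HIST1H3H (ENSG00000278828; hg38 chr6:27810064-27811300, forward strand) was 2.78, 3.39 and 3.82 CPM in parental and 7.12, 5.51 and 5.67 CPM in resistant libraries, on between 48 and 118 counts. Its groups did not overlap, and the log2 fold change was 0.88 (SE 0.18, FDR 1.17e-04, edgeR). HIST1H3E (ENSG00000274750; hg38 chr6:26224199-26227473, forward strand) had 50, 22 and 27 counts in parental and 71, 51 and 37 in resistant libraries. Here the groups overlapped, since parental library 1 reached 2.90 CPM and resistant library 3 only 2.28 CPM, and the log2 fold change was 0.696 (SE 0.26, FDR 0.0335, edgeR). Leaving out parental library 2 or 3, or resistant library 1 or 2, ended its significance, at log2 fold changes of 0.44 to 0.67 and an FDR of up to 0.256, and so did DESeq2 (FDR 0.0967). Without parental library 1 the log2 fold change was 1.05 (FDR 0.00323) and the gene was called higher.

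HIST1H2BN (ENSG00000233822; hg38 chr6:27837760-27865798, forward strand) is an H2B gene whose model of 5477 bases is far longer than a histone coding sequence. It was 3.36, 2.50 and 2.95 CPM in parental and 4.64, 4.01 and 4.13 CPM in resistant libraries, without overlap, and its log2 fold change was 0.54 (SE 0.20, FDR 0.0314, edgeR). Its span contains HIST1H2AK and HIST1H2AL, so part of its reads cannot be assigned with certainty. Its significance ended without parental library 2 or 3 or resistant library 1, at an FDR of up to 0.135, and with DESeq2 (FDR 0.0910).

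HIST2H4B, an H4 gene (ENSG00000270276; hg38 chr1:149854045-149861210, reverse strand), was the one member called. It had 4, 6 and 0 counts in parental and 11, 10 and 12 in resistant libraries, and passed the low-count filter only through the resistant group. The log2 fold change was 1.71 (SE 0.59, FDR 0.0199, edgeR). HIST2H4A is a near-identical copy with 1, 0 and 1 counts in parental and 2, 2 and 13 in resistant libraries. The counts of both copies together were 5, 6 and 1 in parental and 13, 12 and 25 in resistant libraries, so the groups stayed apart, but the share of each copy is uncertain. Leaving out parental library 3 (log2 fold change 1.22, FDR 0.124) or any 1 of the resistant libraries (1.66 to 1.74, FDR up to 0.0633) ended the call of HIST2H4B, and so did DESeq2.

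The linker histone HIST1H1C (ENSG00000187837; hg38 chr6:26055787-26056428, reverse strand), which encodes H1.2, went the other way. Its level was 10.5, 9.35 and 13.1 CPM in parental and 7.12, 7.41 and 5.98 CPM in resistant libraries, on between 97 and 182 counts. The groups did not overlap, and it fell by 0.68 on the log2 scale (SE 0.14, FDR 8.99e-05, edgeR). HIST1H1E was the only other H1 gene tested, at 5 to 12 counts per library, and had a log2 fold change of 0.11 (SE 0.47, FDR 0.885). H1F0, the replacement linker histone H1.0, lies outside the naming rule and was between 512 and 547 CPM in parental and between 473 and 475 CPM in resistant libraries. It fell by 0.17 on the log2 scale (SE 0.027, FDR 3.57e-06, edgeR). H1FX, another replacement linker histone, did not pass the test at a log2 fold change of −0.063 (FDR 0.494). CENPA, the centromeric H3 variant, fell by 0.28 (SE 0.085, FDR 0.00886, edgeR).

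HIST1H2BK, the second HIST gene by FPKM, stayed within 10.6 to 12.6 CPM in parental and 11.6 to 12.8 CPM in resistant libraries, with a log2 fold change of 0.095 (SE 0.11, FDR 0.550, edgeR). In all, 21 tested members did not pass the test. For 11 of them the standard error of the log2 fold change was above 0.3, so even sizeable differences could not be seen.

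The HIST1 cluster held 55 members over 2.17 Mb of hg38 (chr6:25726132-27893843). Signal was spread unevenly along it: HIST1H2BK, HIST1H1C, HIST1H4I, HIST1H2AC and HIST1H3H were the 5 highest by FPKM, at 31.1, 13.9, 4.38, 3.94 and 3.81, and many genes between them were at or near 0. HIST1H4F, HIST1H4G, HIST1H3F, HIST1H2BH, HIST1H3G and HIST1H2BI, 6 adjacent genes within 32.9 kb, had 0 counts in all 6 libraries. On either side, HIST1H1D had at most 1 count and HIST1H4H had 18 to 25 counts per library. The testis histone genes HIST1H1T, HIST1H2AA and HIST1H2BA were likewise at 0.

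**Figure D3:**
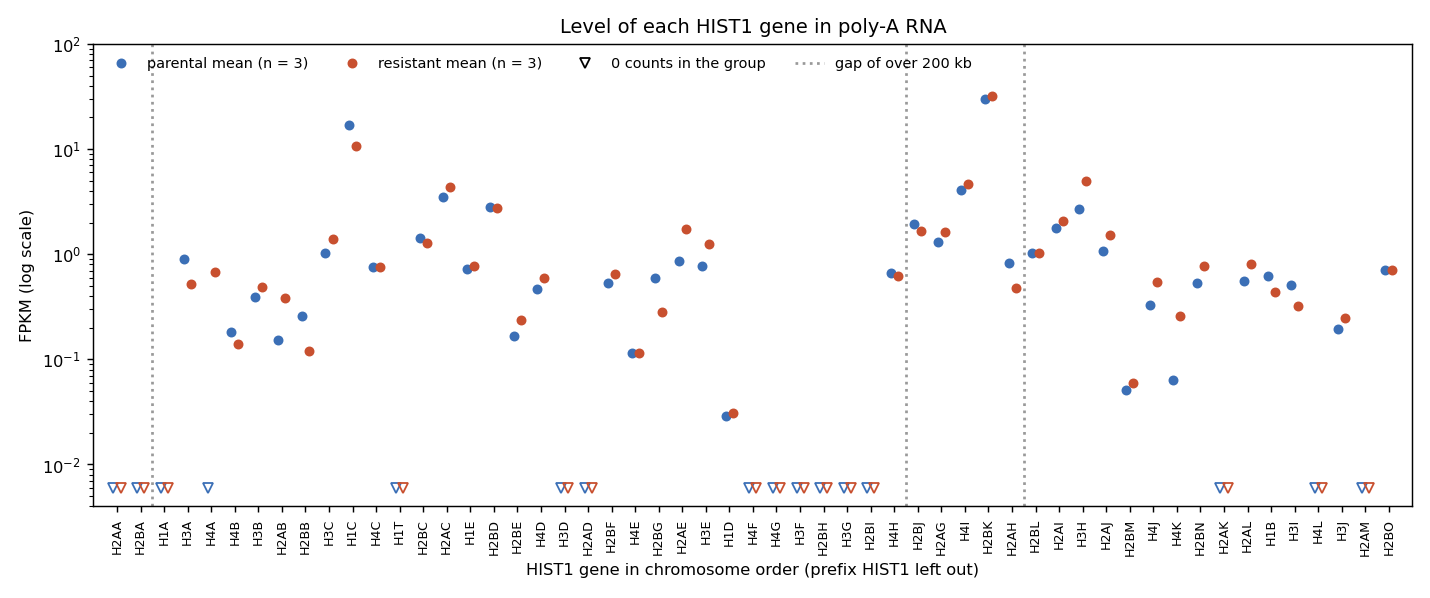
Mean FPKM (log scale, n = 3 libraries per group) of the 55 HIST1 genes in chromosome order, with triangles for a group with 0 counts and dotted lines for gaps of more than 200 kb. HIST1H2BK is the highest at 31.1 FPKM over all libraries, and a run of 6 genes from HIST1H4F to HIST1H2BI has no counts in either group.

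Some zeros stood in gene models that overlap others, and the part of the overlap in these values was not tested. Of the 20 members with 0 counts, 7 overlapped another gene of the table and 4 lay wholly inside one. HIST1H3D and HIST1H2AD lie inside AL031777.3, a protein-coding gene model on the same strand, which had between 78 and 140 counts per library. HIST1H2AK lies inside HIST1H2BN. HIST2H3A and HIST2H3C overlap HIST2H4B and HIST2H4A and are themselves near-identical copies. None of the 6 genes from HIST1H4F to HIST1H2BI overlapped another gene of the table.

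HIST genes with a longer gene model more often had counts. Of the 50 HIST genes with a model of at most 1000 bases, 34 stayed under 10 counts in every library, whereas 5 of the 21 genes with a longer model did. The median over genes of the mean FPKM, which takes length into account, was 0.437 for short and 0.588 for long models. Long models summed to 45.4 ± 2.19 CPM (SD, n = 3) in parental and 66.5 ± 1.24 CPM in resistant libraries, a log2 ratio of 0.55. HIST2H2BE, which has a long model, went from 14.2 to 25.6 CPM and made up a large part of this difference. Short models summed to 75.7 ± 4.09 and 82.5 ± 4.14 CPM, a log2 ratio of 0.13. At an FDR of less than 0.05, 5 of the 14 tested genes with long models were higher (35.7%). Of these, HIST2H4B, HIST1H2BN and HIST1H3E lost significance with DESeq2 and in some fits with 1 library left out. HIST2H4B had also passed the low-count filter only through the resistant group. The share for long models therefore depends on the fit. Of the 11 tested genes with short models, 1 was higher, HIST3H2A (9.09%). Over all genes tested, 17.1% were higher. HIST1H1C, the lower one, had a short model.

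Other RNAs without a poly-A tail were looked at beside the HIST genes. Their counts also depend on how reads that match several genes were treated, which is not known here. They therefore do not measure the oligo-dT step on its own. Of the 16 listed, RMRP appears under a further identifier, and 16 of the resulting 17 entries, among them RN7SK and the spliceosomal snRNAs, stayed under 10 counts in every library. The exception was RN7SL2, the RNA of the signal recognition particle, which was 490, 421 and 380 CPM in parental and 514, 527 and 514 CPM in resistant libraries (log2 fold change 0.27, SE 0.043, FDR 2.47e-06, edgeR). RN7SL2 rose in resistant cells, and its part in the HIST values was not tested.

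Most of the listed S phase and G2 and M phase genes were lower in resistant cells. Of 24 S phase genes, 19 (79.2%) were lower and 0 higher at an FDR of less than 0.05 (edgeR). Over all genes tested, 18.4% were lower and 17.1% higher. The median log2 fold change of the S phase genes was −0.18. MCM5 and MCM7, subunits of the replicative helicase, fell by 0.29 (SE 0.030) and 0.199 (SE 0.024), and PCNA, the sliding clamp, fell by 0.22 (SE 0.028). Of 20 G2 and M phase genes, 18 (90%) were lower and 0 higher, with a median of −0.27. They included TPX2, a spindle assembly factor that fell by 0.31 (SE 0.031), CCNA2, which encodes cyclin A2 and fell by 0.33 (SE 0.033), and MKI67, the Ki-67 gene, which fell by 0.23 (SE 0.025).

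Of 21 factors in the table that make, process or degrade histone mRNA, 2 were higher and 5 lower at an FDR of less than 0.05 (9.52% and 23.8%, against 17.1% and 18.4% of all genes tested, edgeR), with a median log2 fold change of −0.042. ZNF473, a zinc finger protein of the histone pre-mRNA processing machinery, had the largest change. It was 42.0, 42.8 and 43.5 CPM in parental and 58.8, 62.9 and 62.3 CPM in resistant libraries, a log2 fold change of 0.52 (SE 0.056, FDR 3.48e-10, edgeR). ERI1, the exonuclease that trims and degrades histone mRNA, fell by 0.25 (SE 0.065), and POU2F1, the octamer factor that binds H2B promoters, fell by 0.22 (SE 0.051). SLBP, the stem-loop binding protein, ranged from 191 to 199 CPM in parental and from 199 to 205 CPM in resistant libraries and did not pass the test (log2 fold change 0.057, FDR 0.191). NPAT, the coactivator of histone gene transcription, did not pass it either (−0.15, FDR 0.0898).

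Among 20 histone chaperones and related genes, 9 were lower and 2 higher at an FDR of less than 0.05 (edgeR). These shares were 45% and 10%, against 18.4% and 17.1% of all genes tested. ANP32E, which removes H2A.Z from nucleosomes, was 426, 413 and 401 CPM in parental and 325, 333 and 315 CPM in resistant libraries, and fell by 0.35 (SE 0.030, FDR 5.62e-13). SSRP1, a subunit of the FACT complex, fell by 0.32 (SE 0.029), and CHAF1B, a subunit of the replication-coupled assembly factor CAF-1, fell by 0.36 (SE 0.050).

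**Figure D4:**
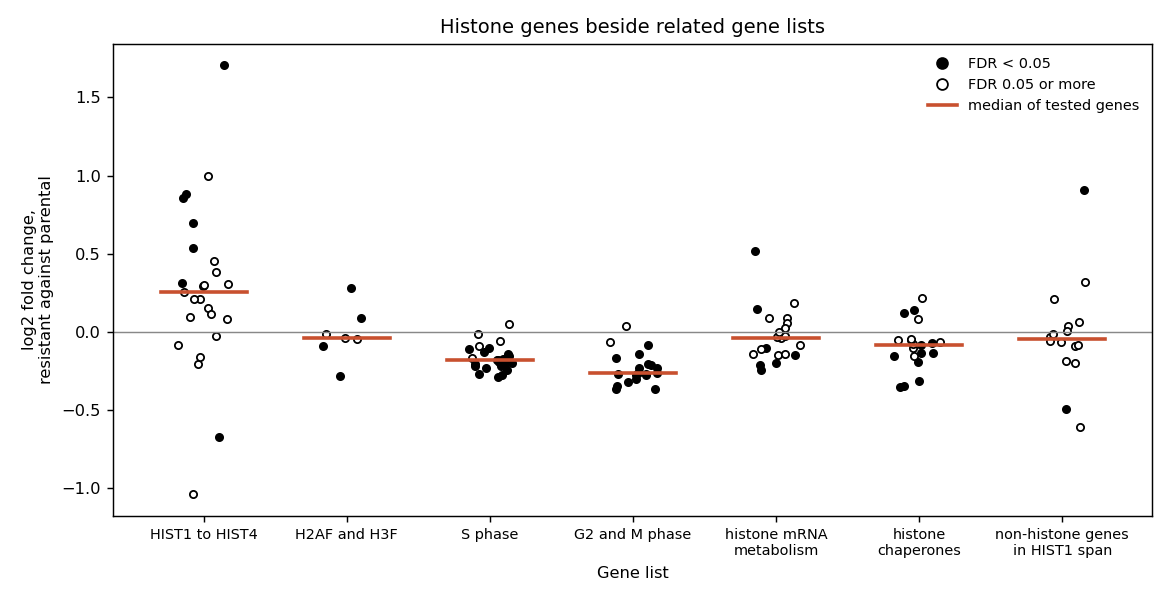
Log2 fold change (y axis, resistant against parental) of the tested genes of each list, with filled points for an FDR of less than 0.05 and a bar at the median. HIST genes scatter widely around a median of 0.25, while S phase genes lie around −0.18 and G2 and M phase genes around −0.27, mostly below 0.

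The non-histone genes between the HIST1 genes did not move as a block. Of 20 such protein-coding genes, 16 were tested, and 1 was higher and 1 lower at an FDR of less than 0.05 (edgeR). This was 6.25% in each direction, against 17.1% higher and 18.4% lower over all genes tested. The median log2 fold change of the 16 genes was −0.048. TRIM38, a ubiquitin ligase gene, rose with a log2 fold change of 0.91 (SE 0.10), and PRSS16, a serine protease gene, fell by 0.49 (SE 0.065). Among the 34 histone names of other biotypes, 6 were tested. HIST2H2BC, an H2B pseudogene, was at 37.2 to 39.9 CPM in parental and 32.5 to 33.8 CPM in resistant libraries. It fell by 0.24 on the log2 scale (SE 0.065, FDR 0.00360, edgeR), without overlap between the groups.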

How the data were processed

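Libraries were made from oligo-dT-selected RNA. Reads were aligned by the authors with HISAT2 (2.0.5) on hg38 and counted per gene with featureCounts (1.5.0-p3), and the submitters' processing notes also name fastp. The deposited values are raw counts, with the gene model length in bases as another quantity. The annotation release, the strand setting and the treatment of reads that match several genes are not given in the sources used here.

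From the counts, genes were filtered with filterByExpr, scaled with TMM and tested by quasi-likelihood in edgeR 4.0.16 (R 4.3.3). The authors' methods name limma, which was run as an alternative (limma-voom, limma 3.58.1) beside DESeq2 (1.42.0). Thresholds, an FDR of less than 0.05 and for a call also an absolute log2 fold change greater than 1, were those of the authors' methods. The SE is the log2 fold change divided by the square root of F. On simulated counts for 17142 genes, edgeR recovered 199 of 200 genes given a log2 fold change of 2 in either direction, with 1 false call. Recovery of smaller differences, which include those of all tested histone genes, was not tested.

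Histone genes and lists were chosen with earlier results of these data known. The text names members that were called, the 10 highest by FPKM, the 8 most changed in each direction among those passing the test, all tested H2AF and H3F genes, the 3 of each list with the smallest p, and SLBP, NPAT, H1F0, H1FX and CENPA. Pair partners, copies, genes at or near 0, genes of the HIST1 span and pseudogenes named beside them were chosen after their values were seen. Reference sequences of the human genes were not used here.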

Additional observations from a re-analysis of the deposited data

How the results depend on the processing

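For the 15 tested histone genes chosen for full report, 193 of 209 refitted values stayed on the same side of an FDR of 0.05 with the same sign, 15 lost significance and 1 changed sign, that of H2AFY, which passed in no fit (0.0055 without parental library 3, against −0.015 in the report and −0.037 at the lowest with 1 library left out). The values that lost significance were those of HIST1H2BN, HIST1H3E, HIST2H4B and, in 1 fit, H3F3A. The cause was not tested. Members called higher, 1 in the report, were 0 with DESeq2, 0 with at least 10 counts in every library and 3 with no filter, where HIST1H4A and HIST2H4A joined HIST2H4B, and ranged from 0 to 2 with 1 library left out. Members called lower, 0 in the report, ranged from 0 to 1 with 1 library left out, the one being HIST1H2BG without parental library 2. Members higher at an FDR of less than 0.05, 8 in the report, were 5 with DESeq2 and ranged from 5 to 8 with 1 library left out, with 5 without parental library 2, parental library 3 or resistant library 1. H2AFZ, HIST1H3H, HIST2H2BE and HIST3H2A remained higher, and H2AFY2, H3F3B and HIST1H1C lower, in every fit. The median log2 fold change of tested members, 0.18, was 0.16 with library size alone, 0.21 with no filter and 0.13 with at least 10 counts in every library, and ranged from 0.081 to 0.23 with 1 library left out, lowest without resistant library 3. The log2 ratio of summed H2AF and H3F genes, 0.036, was 0.020 with library size alone and 0.075 without H3F3B.

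Replicate numbers 1 to 3 are shared by the groups in the labels, but same-numbered libraries did not deviate together, with correlations of −0.0081, −0.020 and −0.016. With the replicate number as a block, 8 members were higher and 3 lower at an FDR of less than 0.05, 1 was called, and the median was 0.18.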
